A study of Homo sapiens with 8 samples.

Results

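The chromatin around 7 genes of matrix turnover was examined in LX-2, a human hepatic stellate cell line that grows without limit in culture. The genes were the 4 tissue inhibitors of metalloproteinases (TIMP1, TIMP2, TIMP3 and TIMP4), the urokinase gene PLAU, the tissue plasminogen activator gene PLAT and the urokinase receptor gene PLAUR. All peaks that lay wholly inside a gene body with 50 kb on each side were taken from 8 peak lists of ATAC-seq, an assay in which a transposase inserts adapters into open chromatin. These windows held 434 peaks of 466883. Overlapping peaks were merged over the lists, and 65 of the 75501 merged sites with a peak in at least 2 libraries lay in the windows. A further 11 merged regions there had a peak in 1 library only.

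Wild type LX-2 cells were grown on a hydrogel of about 2 kPa (soft) or about 40 kPa (stiff), and harvested after 2 days (D2) or 4 days (D4). Each matrix and day had 2 libraries, called for example D2 soft and D4 stiff. The comparison of matrices asks whether stiffness changes the accessibility of these genes. That of days, averaged over both matrices, asks whether time in culture does. The interaction of stiffness and day asks whether the difference between matrices changes with time. All libraries come from 1 cell line, which limits them as a model of stellate cells in the liver. A peak within 1 kb of a start was present in all 8 libraries at 5 of 10 marker genes of stellate cells. These were ACTA2, COL1A1, PDGFRB, TAGLN and VIM, with peaks in some libraries at 4 others and in none at DES. Among coding genes the share with a peak in all 8 was 47.6%, so this count does not set the cells apart as stellate. Of 5 hepatocyte genes none had a peak in all 8 libraries, with ALB and APOA1 in none, TTR and CYP3A4 in 2 and SERPINA1 in 1. The endothelial gene CDH5 had a peak in 4 libraries and VWF in none. The leukocyte genes CD68 and CD14 and the biliary gene KRT7 had one in all 8, EPCAM in 6, and PTPRC and KRT19 in none.

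Plasminogen is cut to plasmin by urokinase and by tissue plasminogen activator, and plasmin degrades fibrin and other matrix proteins and activates several metalloproteinases. The urokinase receptor holds urokinase at the cell surface. TIMP proteins block metalloproteinases, and activated stellate cells are a known source of TIMP1 in the fibrotic liver, where it slows the breakdown of scar matrix.

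Sequences are shown for promoters and distal sites that the results below turn on, as stretches of 121 bases around the summit of the best-ranked peak (GRCh37, the build called hg19), read 5′ to 3′ on the strand of the gene. Capitals mark matches, on either strand, to TGACTCA (AP-1), GGAATG (TEAD), GGGCGG (GC box) and TGTGGT (RUNX).
TIMP1 promoter, chrX:47441652-47441772, plus strand: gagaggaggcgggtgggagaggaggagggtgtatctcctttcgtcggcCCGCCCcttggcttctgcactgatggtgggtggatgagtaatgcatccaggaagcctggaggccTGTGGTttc
TIMP2 intron, 63.1 kb downstream of the start, chr17:76858328-76858448, minus strand: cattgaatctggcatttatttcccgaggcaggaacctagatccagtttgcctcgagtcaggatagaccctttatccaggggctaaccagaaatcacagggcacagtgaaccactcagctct
TIMP3 intron, 1.66 kb downstream of the start, chr22:33199222-33199342, plus strand: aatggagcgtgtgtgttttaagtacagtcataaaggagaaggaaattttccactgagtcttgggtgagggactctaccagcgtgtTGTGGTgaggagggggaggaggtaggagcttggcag
TIMP4 intron, 2.84 kb downstream of the start, chr3:12197462-12197582, minus strand: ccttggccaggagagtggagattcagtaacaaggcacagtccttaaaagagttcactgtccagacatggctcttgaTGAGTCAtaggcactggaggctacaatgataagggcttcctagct
TIMP4, 35.1 kb upstream, chr3:12235057-12235177, minus strand: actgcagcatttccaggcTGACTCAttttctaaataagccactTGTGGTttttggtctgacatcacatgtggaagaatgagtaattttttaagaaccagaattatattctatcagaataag
PLAU, 14.5 kb upstream, chr10:75654473-75654593, plus strand: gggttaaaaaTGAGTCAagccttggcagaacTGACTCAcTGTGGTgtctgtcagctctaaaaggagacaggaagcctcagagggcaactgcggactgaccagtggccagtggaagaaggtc
PLAU, 2.28 kb upstream, chr10:75666612-75666732, plus strand: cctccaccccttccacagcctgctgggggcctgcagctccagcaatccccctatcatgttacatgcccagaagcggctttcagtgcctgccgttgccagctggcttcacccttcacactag
PLAU, 23.3 kb downstream of the start, chr10:75692209-75692329, plus strand: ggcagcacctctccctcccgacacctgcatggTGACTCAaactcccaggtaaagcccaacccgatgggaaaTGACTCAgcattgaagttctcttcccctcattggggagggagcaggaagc
PLAUR promoter, chr19:44173063-44173183, minus strand: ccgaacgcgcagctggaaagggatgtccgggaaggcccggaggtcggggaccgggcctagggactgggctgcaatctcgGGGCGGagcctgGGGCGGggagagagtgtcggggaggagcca
The PLAU site 14.5 kb upstream and the PLAU site 23.3 kb downstream each held a pair of AP-1 matches, and both TIMP4 sites held 1. No match lay in the shown stretches of the TIMP2 intron site and the PLAU site 2.28 kb upstream. The stretch of the PLAUR promoter site lay inside the gene, downstream of the main start at chr19:44174699, in a site 2176 bases wide. A match describes letters only and does not show that a factor binds.

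Within 100 bp of the summit, the AP-1 letters occurred at 21 of the 65 sites (32.3%), against 30.2% of all sites. The GC box occurred at 19 (29.2% against 16.2%) and at 10 of the 48 sites that lay outside promoters (20.8% against 5.72%). RUNX letters occurred at 17 (26.2% against 16.9%) and TEAD letters at 9 (13.8% against 19.1%). CCGGAAG (ETS) was found at 1 site and TGACGTCA (CRE) at 0, against 3.54% and 0.608% of all sites. The median GC content of these stretches was 55.2% in the windows and 48.3% over all sites. These shares were not tested, and the part of GC content in them was not tested.

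Of the 65 sites, 33 had a peak in all 8 libraries (50.8%, against 32.1% of all sites). The promoters of the 7 genes (within 1 kb of a start) held 8 sites, promoters of neighbouring genes held 9, and 48 were distal. Distal sites were 26 in introns, 21 between genes and 1 in an exon. PLAU had 11.1 sites per 100 kb of window and PLAT 9.78, above 98.8% and 96.8% of 20163 coding genes, whose median was 3.93. PLAUR had 4.02, and the TIMP windows ranged from 5.58 (TIMP3) to 7.54 (TIMP2). Sites found in all 8 libraries numbered 9 of 13 at PLAT, 8 of 13 at TIMP2, 6 of 12 at PLAU, 4 of 7 at TIMP1 and 4 of 5 at PLAUR, but 1 of 9 at TIMP3 and 1 of 6 at TIMP4.

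**Figure D1:**
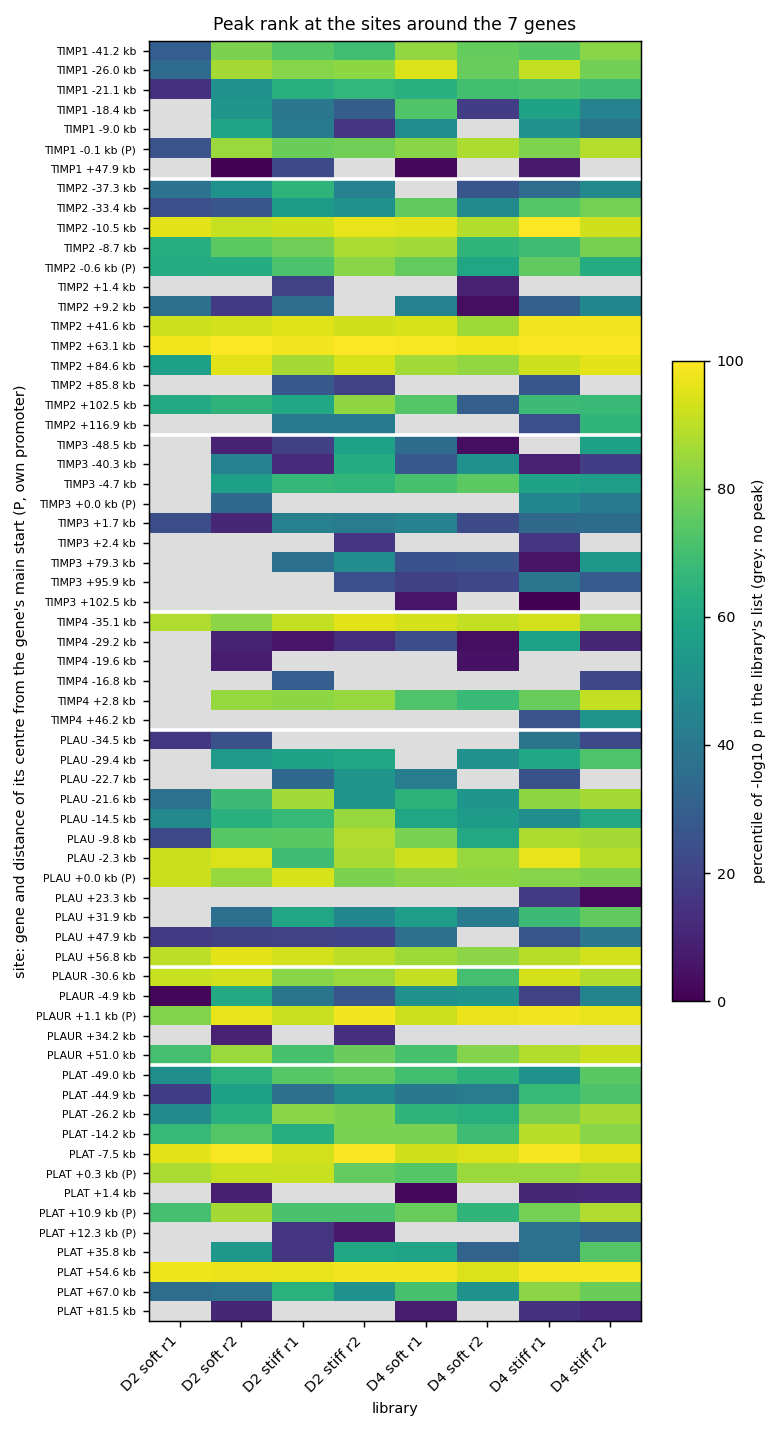
Heat map of the 65 sites (rows, named by gene and by distance in kb of the site's centre from the gene's main start; P, own promoter) in 8 libraries (columns; r1 and r2, replicates). Colour gives the percentile of −log10 p in the library's own list, with 100 for the strongest peak, and grey means no peak; rows of TIMP3 and TIMP4 hold the most grey, and the D2 soft replicate 1 column lacks 7 sites found in every other library.

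The libraries differed in depth. Lists held 29789 to 72840 peaks, and the fragments per kb of genome estimated from the deposited values ran from 0.779 in D2 soft replicate 1 to 3.15 in D4 stiff replicate 1. D2 soft replicate 1 alone lacked 7 of the 65 sites (10.8%, against 15.0% of all sites). Fold enrichments are given as deposited. Because values of a list are comparable within that list only, libraries are ordered by rank. Peaks are described by their percentile rank in the list, for the fold enrichment and for its −log10 p. Fold enrichment is the pileup at the summit over the local background, each with a small constant added. That constant lowers the ratio most where depth is low, as in D2 soft replicate 1. At sites with peaks in all lists, ranks of fold enrichment among those sites were turned into normal scores, called rank scores, which were compared between groups with limma, a linear model fitted over all such sites in the genome.

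TIMP1, which encodes a secreted inhibitor of most metalloproteinases, lies in an intron of SYN1 on chromosome X. Its promoter site (chrX:47441430-47442006) had a peak in all 8 libraries, with fold enrichments of 4.98 and 10.3 on the soft matrix at D2, 9.08 and 9.73 on the stiff one at D2, 9.14 and 9.83 on soft at D4, and 9.39 and 10.5 on stiff at D4. The percentiles of −log10 p were 25.8 and 84.9 on the soft matrix at D2, 77.5 and 78.3 on the stiff one at D2, 82.1 and 87.6 on soft at D4, and 80.7 and 88.7 on stiff at D4. D2 soft replicate 1, the library of lowest depth, was low and the other 7 lay close together, and soft and stiff overlapped in rank score on both days. The strongest distal site of the window, 26.0 kb upstream, was also found in all 8 libraries. At a site 41.2 kb upstream the rank score of fold enrichment was 0.82 higher on day 4 than on day 2 (SE 0.372, adjusted p = 0.691, limma), which did not pass the threshold.

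TIMP2 encodes an inhibitor that also takes part in activating the metalloproteinase MMP2 at the cell surface. Its promoter site (chr17:76921458-76922673) had fold enrichments of 6.96 and 7.79 on the soft matrix at D2, 8.60 and 10.9 on the stiff one at D2, 8.68 and 6.64 on soft at D4, and 7.56 and 7.19 on stiff at D4. In rank score the groups overlapped on day 2 (stiff minus soft 0.18, SE 0.491, adjusted p = 0.954, limma), and on day 4 both stiff libraries were below both soft libraries (-0.53, adjusted p = 0.953, limma). An intron held the site with the highest median percentile in the 7 windows (chr17:76858049-76858755), 63.1 kb downstream of the start. There the fold enrichment was 11.5 and 16.5 on the soft matrix at D2, 14.4 and 16.7 on the stiff one at D2, 15.1 and 12.9 on soft at D4, and 15.5 and 15.9 on stiff at D4, and its −log10 p ranked between percentiles 97.7 and 99.7. In rank score the groups overlapped on both days.

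TIMP3 encodes the inhibitor that binds to the extracellular matrix, and lies in an intron of SYN3. The promoter site (chr22:33197317-33198155) had a peak in 3 libraries, with fold enrichments of 5.29 in D2 soft replicate 2, 4.87 in D4 stiff replicate 1 and 4.95 in D4 stiff replicate 2. Both D4 stiff libraries thus had it and both D4 soft libraries lacked it, while on day 2 it was listed in 1 soft library. The percentiles of −log10 p there were 34.1, 46.4 and 41.2. A site 1.66 kb downstream of the start was present in all 8 libraries with fold enrichments between 4.19 and 6.42.

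TIMP4 encodes the inhibitor with the most restricted expression of the family and lies in an intron of SYN2. No library had a peak within 1 kb of its starts. The site in its body (chr3:12197276-12197861) was found in 7 libraries, with fold enrichments of 12.9 in D2 soft replicate 2, 11.8 and 13.4 on stiff at D2, 9.82 and 8.88 on soft at D4, and 11.9 and 15.8 on stiff at D4. It was missing in D2 soft replicate 1, and by percentile of fold enrichment both D4 stiff libraries (88.0 and 98.3) were above both D4 soft libraries (76.5 and 74.0). Because 1 list lacked the site, it was outside the limma fit, and this order was not tested. The strongest site of the window, 35.1 kb upstream (chr3:12234815-12236194), had a peak in every library at percentiles of −log10 p from 82.5 to 95.6.

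**Figure D2:**
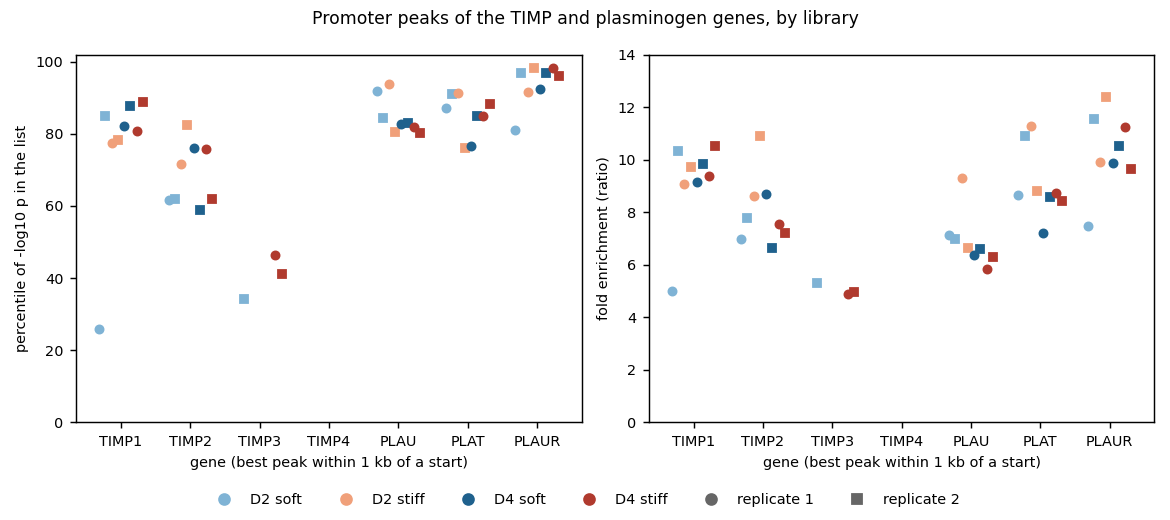
Best peak within 1 kb of a start of each gene, in each library (colours, groups; shapes, replicates), as percentile of −log10 p in the list (left) and as fold enrichment (right). TIMP4 has no point and TIMP3 has 3; the TIMP1 point at 25.8 is D2 soft replicate 1.

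PLAU encodes urokinase, the protease that activates plasminogen at the cell surface. At its promoter (chr10:75668593-75669333) the fold enrichment was 7.12 and 6.96 on the soft matrix at D2, 9.29 and 6.63 on the stiff one at D2, 6.36 and 6.58 on soft at D4, and 5.82 and 6.27 on stiff at D4. In rank score soft and stiff overlapped on day 2, and on day 4 both stiff libraries were below both soft libraries (-0.62, SE 0.522, adjusted p = 0.952, limma). The days overlapped in rank score. The difference of day 4 minus day 2 was -0.80 in rank score (SE 0.370, adjusted p = 0.697, limma), which did not pass the threshold.

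The distal site 2.28 kb upstream of PLAU (chr10:75666277-75667042) had fold enrichments of 7.18 and 8.96 on the soft matrix at D2, 6.09 and 7.45 on the stiff one at D2, 7.77 and 6.75 on soft at D4, and 8.57 and 7.44 on stiff at D4. It ranked far higher by −log10 p (median percentile 90.6) than by fold enrichment (median percentile 53.4). On day 2 the stiff libraries had the lower ranks by fold enrichment, percentiles 32.6 and 44.1 against 66.3 and 65.2, and on day 4 the groups overlapped. This was the lowest p of any of the 33 sites for stiff against soft on day 2, with a difference of -1.17 in rank score (SE 0.480, adjusted p = 0.573, limma). At the site 14.5 kb upstream the fold enrichment was 5.72 and 7.05 on the soft matrix at D2, 8.23 and 9.76 on the stiff one at D2, 6.73 and 6.58 on soft at D4, and 5.57 and 6.65 on stiff at D4. In rank score soft and stiff overlapped there on day 2, and on day 4 both stiff libraries were below both soft libraries. That site had the lowest p for the days, -0.77 in rank score for day 4 minus day 2 (SE 0.337, adjusted p = 0.684, limma). A further site 56.8 kb downstream of the start was found in every library, at percentiles of −log10 p from 82.5 to 95.7.

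PLAT encodes tissue plasminogen activator, the main activator of plasminogen in blood. Its promoter site at the main start (chr8:42064411-42065450) had fold enrichments of 8.65 and 10.9 on the soft matrix at D2, 11.3 and 8.79 on the stiff one at D2, 7.78 and 8.59 on soft at D4, and 8.74 and 10.4 on stiff at D4. In rank score soft and stiff overlapped on both days. A second promoter site, at starts 10.9 kb into the gene, was also present in all 8 libraries. Distal site chr8:42072194-42073308, 7.52 kb upstream, ranked between percentiles 92.6 and 99.3 by −log10 p.

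A site 26.2 kb upstream of PLAT, in an intron of the non-coding gene IKBKB-DT (chr8:42090964-42091857), had fold enrichments of 6.26 and 8.85 on the soft matrix at D2, 12.1 and 12.8 on the stiff one at D2, 8.83 and 8.24 on soft at D4, and 11.9 and 14.3 on stiff at D4. All 4 stiff libraries were above all 4 soft libraries, also as ranks. This held at 1 of the 33 sites, and the opposite order at 0, against 1.88% and 2.12% of 24246 sites with a peak in every library. The difference between stiff and soft was 1.06 in rank score (SE 0.335, adjusted p = 0.439 over all 24246 sites, limma), which did not pass the threshold. Within day 2 it was 1.02 (SE 0.473, adjusted p = 0.627, limma) and within day 4 it was 1.11 (SE 0.473, adjusted p = 0.920, limma).

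**Figure D3:**
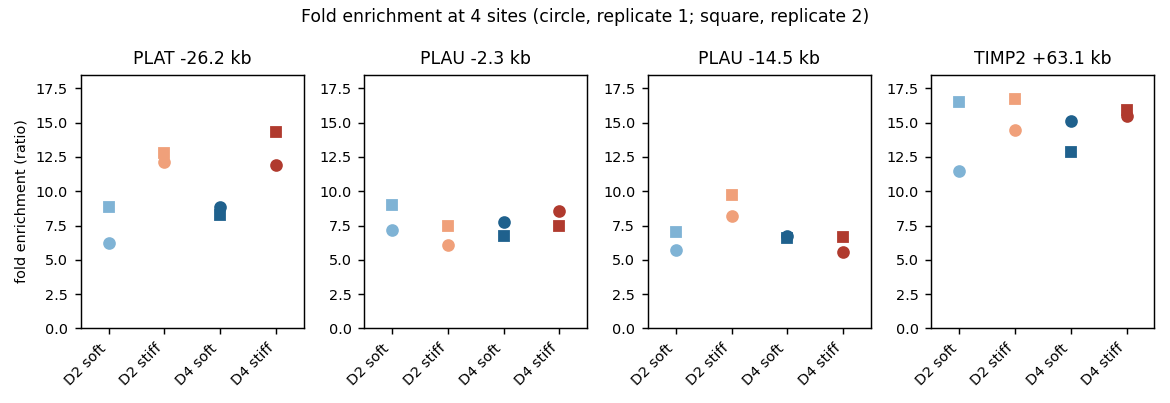
Fold enrichment (ratio, axis from 0) in each library at the sites 26.2 kb upstream of PLAT, 2.28 kb and 14.5 kb upstream of PLAU and 63.1 kb downstream of the TIMP2 start. At the PLAT site the stiff libraries lie between 11.9 and 14.3 and the soft libraries between 6.26 and 8.85.

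PLAUR encodes the urokinase receptor. Its promoter site (chr19:44172553-44174728) had fold enrichments of 7.47 and 11.6 on the soft matrix at D2, 9.91 and 12.4 on the stiff one at D2, 9.86 and 10.5 on soft at D4, and 11.2 and 9.63 on stiff at D4. In rank score the groups overlapped on both days. Percentiles of −log10 p ranged from 81.2 to 98.4 with a median of 96.5, the highest among the promoters. PLAUR ranked above PLAT (median 86.0) in 7 of 8 libraries, while PLAT ranked above PLAU (83.0) in 4 of 8 and PLAU above TIMP1 (81.4) in 5 of 8, so that these 3 cannot be ordered. TIMP1 ranked above TIMP2 (66.9) in 6 of 8, and TIMP2 above TIMP3 (41.2) in each of the 3 libraries with both. The distal PLAUR site 30.6 kb upstream ranked between percentiles 70.6 and 93.5.

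Over the 33 sites that all 8 lists share, limma called 0 sites at an adjusted p under 0.05 for stiff against soft over both days, where 0.00825% of the 24246 sites were called. It also called 0 on day 2 (0.00412% of all sites) and 0 on day 4 (0.00825%), and 0 for the days and for the interaction of stiffness and day (0% of all sites in both). At an unadjusted p under 0.05 there were 1, 2, 1, 3 and 0 of the 33 sites in these 5 comparisons, against 7.72%, 7.65%, 5.35%, 6.91% and 5.27% of all sites, and ranking by −log10 p instead also gave 0 calls in each. The standard errors, 0.335 for both days at the PLAT site and 0.473 within a day, limit the size of difference that could be seen. The fit also covers only sites with a peak in all 8 lists. Ranks within a library cannot show a shift shared by all sites. A count of 0 therefore does not show that the sites were alike on both matrices. The median difference over the 33 sites was -0.12 for both days, beside -0.02 over all sites, and 10 of the 33 were positive (48.5% of all sites). Ranked by −log10 p, the median was 0.08 and 21 of the 33 were positive, so no direction can be read from the group as a whole. The calls over all sites moved with D2 soft replicate 2, and without it limma called 90 sites for both days, 296 on day 2, 6 on day 4, 56 for the days and 0 for the interaction, of 24629, and still 0 of the 33. That fit left D2 soft with replicate 1 alone, the library of lowest depth. Leaving out replicate 1 instead did not raise the calls for both days or on day 2. Within a day, both stiff libraries were above both soft libraries at 4 of the 33 sites on day 2 and 6 on day 4. The opposite order held at 7 and 8 sites, and the shares over all sites were not computed. At 3 of the 33 sites (9.09%, against 5.41% of all sites) stiff and soft did not overlap on either day and were in opposite order on the 2 days.

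**Figure D4:**
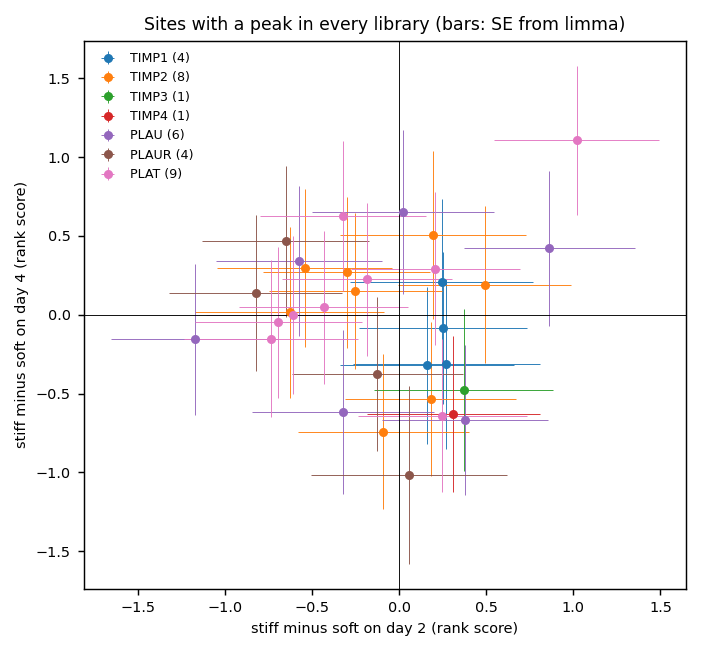
Difference of stiff and soft in rank score on day 2 (horizontal) and day 4 (vertical) at the 33 sites shared by all lists, with SE bars from limma and the number of sites per gene in the key. The point at the upper right is the PLAT site 26.2 kb upstream.

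Presence of a peak depends on depth as well as on accessibility, and these counts carry no test because 2 against 2 libraries cannot give an exact p below 0.333. On day 2, 5 sites had a peak in both stiff and in no soft library (7.69%, against 7.45% of all sites) and 1 in both soft and no stiff library (1.54% against 0.391%). On day 4 the counts were 6 (9.23% against 6.72%) and 0 (0% against 1.31%). The day 2 stiff sites were 2 in the TIMP2 window and 1 each in the windows of TIMP3, PLAU and PLAT, and the soft site was the CAMK2G promoter in the PLAU window. The day 4 stiff sites were the TIMP3 promoter, 2 sites in the PLAU window, and 1 each in the windows of TIMP2, TIMP4 and PLAT. The CAMK2G promoter was one of those PLAU sites, with opposite patterns on the 2 days.

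All 4 stiff and no soft libraries had a peak at 2 sites (3.08%, against 0.85% of all sites), and all 4 soft and no stiff libraries at 0 (against 0.0172%). One was in a USP36 intron in the TIMP2 window, with fold enrichments of 7.13 and 7.98 in D2 stiff and 5.92 and 10.1 in D4 stiff. The other was at a start 12.3 kb inside PLAT (chr8:42052464-42053332), with 3.90 and 3.08 in D2 stiff and 3.87 and 3.90 in D4 stiff. It lay next to the promoter site 10.9 kb into the gene (chr8:42053606-42055004), which had a peak in all 8 libraries. Whether the 2 are parts of 1 open stretch was not tested. The stiff-only PLAT site was weak, at percentiles of −log10 p between 6.8 and 37.5. With lists brought to the length of the shortest by −log10 p, neither stiff-only site kept the pattern.

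The windows held 37 and 56 peaks on soft and 61 and 54 on stiff at D2, then 55 and 49 on soft and 63 and 59 on stiff at D4. Stiff libraries had 10 more on average (59.3 ± 3.86 against 49.3 ± 8.73, SD, n = 4), with a difference of 11 on day 2 and 9 on day 4 (two-sided exact permutation test, p = 0.0857, adjusted over 2 tests 0.171). Without D2 soft replicate 1 the difference was 5.92 peaks. The stiff lists were also longer, and as a share of the list the windows held 0.0911% ± 0.01002 of stiff and 0.0996% ± 0.0176 of soft peaks (SD, n = 4, exact permutation p = 0.486). With lists of equal length the difference was -0.25 peaks. With libraries permuted only within each day, the exact permutation p was 0.111 for peaks and 0.444 for the share (36 arrangements, smallest p 0.0556).

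**Figure D5:**
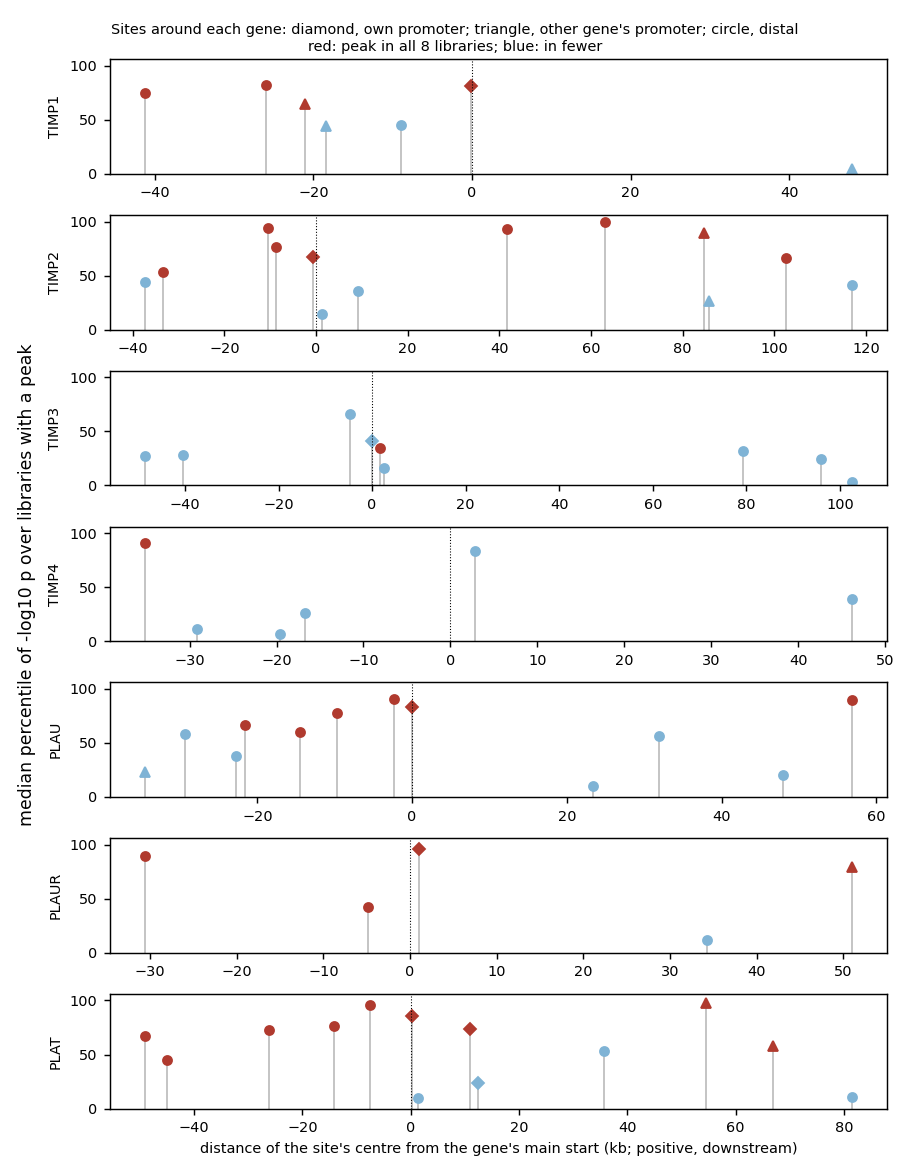
Median percentile of −log10 p, over the libraries with a peak, of each site against the distance of its centre from the gene's main start in kb (diamond, own promoter; triangle, another gene's promoter; circle, distal; red, all 8 libraries; blue, fewer). TIMP3 and TIMP4 each have 1 red point, and the TIMP2 intron site is the highest.

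Among 15 other genes of the pathway, 7 had a promoter peak in all 8 libraries, which was the case for 47.6% of coding genes. They included the inhibitor SERPINE2, the plasminogen receptors PLGRKT, ANXA2 and S100A10, the clearance receptor LRP1 and the metalloproteinase MMP14. S100A10 ranked at a median percentile of 90.9 and PLGRKT at 84.7. No library had a promoter peak at PLG (plasminogen itself), SERPINF2, CPB2 or A2M, as for 26.7% of coding genes. ENO1 and RECK had one in 7 libraries, SERPINB2 in 2 and SERPINA5 in 1. At the 7 promoter sites of the genes with a peak in every library limma called 0 in any of the 5 comparisons, with a lowest adjusted p of 0.67. At an unadjusted p under 0.05 there were 0 for stiff against soft over both days. MMP14 had an unadjusted p of 0.028 for the interaction of stiffness and day (1.63 in rank score, adjusted p = 0.920, limma).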

How the data were processed

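ATAC-seq peak lists of 8 libraries were used. Per the submitters' processing notes the reads were processed with Trim Galore, Bowtie2 2.4.1, bedtools 2.24.0, Picard and MACS2, and aligned to hg19. Peaks were called in each library, and those with q up to 0.05 were kept. Read filters, the Tn5 offset and the MACS2 options are not given in the sources used here. In the deposited lists, fold enrichment is the ratio of summit pileup to local background, each with a small constant added, as the caller of the authors gave it. This form reproduced at least 99.996% of the peaks of every list. The deposited −log10 p and q values of the authors refer to the same background. Read totals were not used, so depth was estimated from the deposited values under the MACS2 model.

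Peaks overlapping by at least 1 bp were merged, with GENCODE release 44 annotation on GRCh37. At sites shared by all lists, ranks of fold enrichment inside each library became normal scores and were fitted with limma 3.58.1 (R 4.3.3) with 4 group means and Benjamini-Hochberg adjustment over all those sites. Exact permutation tests used 70 arrangements (smallest p 0.0286). The fit was tested on simulated data. Groups came from the labels, and p-values measure the spread between these libraries. The sites named were all own promoters, the best distal site of each gene, group-exclusive sites and the lowest p of each comparison, with others chosen after their values were seen. The members, gene lists and motifs were chosen with earlier results of these data known. Alternatives were ranks of −log10 p, a replicate block, q up to 0.01, an overlap of 100 bp, windows with 10 kb, equal list lengths, permutation within days and each library left out. One gene of the pathway list and one sequence are not reported here.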

Additional observations from a re-analysis of the deposited data

Results flagged for a closer look

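In 28 groups of 4 libraries (stiff or soft, for promoter percentiles and window counts), 3 held a library far from the other 3. Chance gives about 1 in 20 for continuous normal values. That rate need not hold for whole-number counts with ties, as in the PLAT window, where a small difference is enough. They were the TIMP1 promoter at percentile 25.8 of −log10 p in D2 soft replicate 1, the PLAU promoter at percentile 93.8 in D2 stiff replicate 1, and 11 peaks in the PLAT window in D2 stiff replicate 2, where the other 3 stiff libraries had 13.

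At 3 of 33 sites (9.09%, against 5.41% of all sites) the stiff libraries moved one way against soft on day 2 and the opposite way on day 4, in every library. The interaction in rank score was 0.92 (adjusted p = 0.942, limma) 56.8 kb downstream of the PLAU start, 0.95 (adjusted p = 0.942, limma) 44.9 kb upstream of PLAT and -0.89 (adjusted p = 0.946, limma) 49.0 kb upstream of PLAT, and none passed the threshold.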

How the results depend on the processing

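The 5 limma counts of 0 stayed at 0 under every alternative run, also without each library and with a replicate block, under which 0 sites were called in each comparison. Without D2 soft replicate 2 the calls over all sites on day 2 rose from 1 to 296. For stiff against soft over both days, the lowest adjusted p (limma) of any site in the windows was 0.408 with a replicate block. It was 0.579 with ranks of −log10 p. Both fits kept every library. The value was lower without D2 soft replicate 2, a fit that left D2 soft with 1 library. The labels share only replicate numbers and the study's methods name no replicate block, so no pairing was used in the main fit. Deviations of same-numbered libraries in that fit correlated between -0.04 and 0.08. With lists of equal length the stiff minus soft difference in peaks became -0.25 (p = 1 by exact permutation). The windows then held 40 sites, and those of stiff only were 0 on day 2 (against 4.07% of all sites). There was 1 on day 4 (2.5% against 2.99%) and 0 in all libraries (against 0.287%), with 2 of soft only on day 2 (5% against 3.22%). Without D2 soft replicate 1 the peak difference fell to 5.92 and that of the share to -0.000362 points. Windows with 10 kb held 24 sites, with 1 of stiff only on day 2 (4.17% against 7.45%) and 2 on day 4 (8.33% against 6.72%). In all stiff libraries there was 1 (4.17% against 0.85%), and 0 of soft only on day 2 (against 0.391%). Without single libraries, the day 2 stiff-only count ranged from 5 to 15 (15 without D2 soft replicate 2, 23.8% against 29.7% of all sites). The day 2 soft-only count ranged from 1 to 5. It was 5 without D2 soft replicate 1 (7.69% against 4.70%) and 2 without D2 stiff replicate 1 (3.17% against 0.9%). The day 4 stiff-only count ranged from 5 to 10 (10 without D4 soft replicate 1, 15.6% against 15.6%). The day 4 soft-only count ranged from 0 to 2. It was 2 without D4 soft replicate 1 (3.12% against 2.01%) and 1 without D4 stiff replicate 2 (1.61% against 3.82%). For all stiff libraries the count was 2 to 3 (3 without D4 stiff replicate 2, 4.84% against 1.27%). Leaving out a library leaves its group with 1 sample, which is assumed to vary like the others. The cause of these moves was not tested. Read depth was known only by estimate, and a site missing from a list may be one the depth could not show.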
